A study of Mus musculus with 16 samples.

Results

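Constitutive far-distal regions were stretches of open chromatin that ATAC-seq found in bone marrow-derived macrophages under all 4 treatments of the study and that lay far from every annotated promoter. Overlapping peaks of the 4 deposited lists were merged into 37648 regions, of which 26439 held a peak in every list. Of these, 1453 regions had their midpoint more than 50 kb from every annotated transcription start site (TSS) and are described here. They made up 5.50% of the constitutive regions and 3.86% of all merged regions. Presence in all lists and distance from a TSS chose these regions and are therefore not results. The regions just inside the limit lay 50009, 50010 and 50067 bp from a TSS, and those just outside lay 49994, 49962 and 49927 bp away.

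All macrophages were derived from the marrow of C57BL/6J mice with no genetic change named in the labels, young adult females per the study's methods. They were grown in L-cell conditioned medium and kept without serum for a day before treatment. On day 8 the cells received either DMSO vehicle (Veh) or 500 nM T0901317 (T0), a synthetic agonist of the liver X receptors LXRα and LXRβ, for 3 h. In the LPS and T0-LPS groups, 10 ng/mL lipopolysaccharide, a bacterial ligand of TLR4, was then added for a further 2 h, so that LPS and the longer time in culture cannot be told apart. Per the study's methods it went into the medium that held the agonist, so T0-LPS cells also had T0 for longer than T0 cells. Where the change with T0 differs with and without LPS, LPS and this longer exposure cannot be told apart. Each group had 4 libraries of 50000 cells, and peaks were called on the 4 libraries together. Each group therefore gave 1 list with no replicates, no difference between lists could be tested, and all intervals below are 95% Wilson intervals that cover counting error only.

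Marker genes were counted to describe the lists. The authors had kept only peaks at enhancers marked in other macrophage data, so these counts cannot show how pure the cells were. Of 10 macrophage markers, 9 had a constitutive region within 1 kb of a TSS, the exception being Csf1r, which had one within 10 kb. The corresponding number within 1 kb was 0 of 6 T cell markers, 1 of 5 B cell markers (Ms4a1), 1 of 5 neutrophil markers (S100a8) and 0 of 5 fibroblast markers. Within 10 kb, the T cell markers Cd3g and Cd4 and the B cell marker Cd79a had one too. No cell sort was named.

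Enhancers are stretches of DNA that bind transcription factors and raise the transcription of genes that can lie far away along the chromosome. In macrophages, PU.1 opens many such sites together with AP-1 and C/EBP factors, and TLR4 signalling brings NF-kB and further AP-1 to them. LXR, a nuclear receptor that senses oxysterols, binds DNA as a heterodimer with RXR, classically at direct repeats of a half-site. The authors kept only peaks that carried enhancer-type histone marks in other macrophage data, and enhancer activity itself was not measured here.

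The central 200 bp of 9 of the regions are given below as the plus strand of GRCm38. They show the strongest regions, the largest changes and the strongest region near each of 3 macrophage transcription factor genes. Capitals mark matches on either strand to a consensus for PU.1 (GAGGAAGT), AP-1 (TGANTCA), C/EBP (TTGCNNAA), NF-kB, a nuclear receptor half-site (AGGTCA) or a DR4 element, that is, 2 half-sites in the same direction with a spacer of 4 bases and up to 2 mismatches. Matches can overlap.
Strongest region, chr13:90516009-90516208: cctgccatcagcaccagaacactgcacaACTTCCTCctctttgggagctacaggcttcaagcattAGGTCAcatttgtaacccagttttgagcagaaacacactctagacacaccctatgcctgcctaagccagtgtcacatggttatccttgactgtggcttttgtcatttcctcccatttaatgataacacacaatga
Strong region in Pde4d, chr13:108553106-108553305: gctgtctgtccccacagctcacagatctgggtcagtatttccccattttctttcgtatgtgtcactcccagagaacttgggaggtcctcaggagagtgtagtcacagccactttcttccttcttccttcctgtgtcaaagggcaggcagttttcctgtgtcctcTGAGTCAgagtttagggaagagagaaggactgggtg
Largest rise with LPS, in Ube2e2, chr14:18731186-18731385: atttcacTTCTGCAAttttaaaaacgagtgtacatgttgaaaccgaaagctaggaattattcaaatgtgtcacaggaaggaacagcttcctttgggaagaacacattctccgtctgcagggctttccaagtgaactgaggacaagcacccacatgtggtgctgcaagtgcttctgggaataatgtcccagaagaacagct
Next largest rise with LPS, in Macrod2, chr2:140846858-140847057: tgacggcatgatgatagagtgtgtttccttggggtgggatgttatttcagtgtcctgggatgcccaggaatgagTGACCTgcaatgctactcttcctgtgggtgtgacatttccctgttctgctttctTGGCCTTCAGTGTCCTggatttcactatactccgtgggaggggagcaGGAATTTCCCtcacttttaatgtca
Largest fall with LPS, near Cd200r3, chr16:45005418-45005617: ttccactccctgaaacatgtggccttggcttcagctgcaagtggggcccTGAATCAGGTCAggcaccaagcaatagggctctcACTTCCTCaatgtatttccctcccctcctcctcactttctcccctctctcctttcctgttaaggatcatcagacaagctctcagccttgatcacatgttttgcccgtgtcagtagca
Largest fall with T0, near Myc, chr15:62401167-62401366: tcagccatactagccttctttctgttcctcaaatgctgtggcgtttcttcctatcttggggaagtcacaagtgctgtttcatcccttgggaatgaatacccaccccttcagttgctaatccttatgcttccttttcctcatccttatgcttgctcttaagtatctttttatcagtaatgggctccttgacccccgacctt
Strongest region near Maf, chr8:115650285-115650484: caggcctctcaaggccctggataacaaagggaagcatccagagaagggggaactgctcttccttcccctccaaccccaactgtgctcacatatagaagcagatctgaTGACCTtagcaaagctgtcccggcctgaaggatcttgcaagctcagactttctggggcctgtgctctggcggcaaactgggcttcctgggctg
Strongest region near Klf4, chr4:55741448-55741647: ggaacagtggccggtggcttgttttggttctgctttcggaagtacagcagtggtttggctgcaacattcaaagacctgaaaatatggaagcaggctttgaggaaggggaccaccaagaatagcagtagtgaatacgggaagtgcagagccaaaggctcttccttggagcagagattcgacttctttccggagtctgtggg
Strongest region near Zeb2, chr2:45219943-45220142: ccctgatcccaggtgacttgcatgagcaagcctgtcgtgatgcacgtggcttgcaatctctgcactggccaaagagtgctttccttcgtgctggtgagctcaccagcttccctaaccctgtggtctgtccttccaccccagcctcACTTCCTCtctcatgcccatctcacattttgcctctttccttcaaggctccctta

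The 1453 regions lay a median of 72965 bp from the nearest TSS, with quartiles of 58926 and 98736 bp. Of them, 350 (24.1%) were more than 100 kb and 46 (3.17%) more than 200 kb from every TSS. The region farthest from a TSS of the annotation used sat 328388 bp away, in an intron of Gpc6, which encodes a cell surface heparan sulfate proteoglycan. RefSeq transcripts placed a TSS 157177 bp from it. To the nearest TSS of a protein-coding gene the median distance was 98359 bp and the longest 1501810 bp, since for only 593 regions (40.8%) was the nearest TSS that of a protein-coding gene. By position, 855 regions (58.8%) fell in introns, 574 (39.5%) outside annotated genes and 24 (1.65%) in exons. Constitutive regions 1 to 50 kb from a TSS lay outside genes in 37.8% of cases. The nearest protein-coding TSS was downstream of 524 regions (36.1%), which thus lay upstream of their gene, and the other 929 lay downstream of that TSS.

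The distance rested on the basic GENCODE annotation. A TSS of the comprehensive GENCODE set lay within 50 kb of 461 regions (31.7%) and within 1 kb of 37 (2.55%). RefSeq transcripts placed a TSS within 50 kb of 667 regions (45.9%) and within 1 kb of 55 (3.79%). A TSS of either set came within 1 kb of 77 regions (5.30%), and 588 regions (40.5%) had no TSS of either set within 50 kb. With the comprehensive set, 992 regions would have met the rule.

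Far-distal regions had a base composition unlike that of promoters. Their median GC content was 46.0%, against 48.3% for constitutive regions 1 to 50 kb from a TSS and 62.4% for those within 1 kb. Their median ratio of observed to expected CpG was 0.209, against 0.225 and 0.773. A ratio above 0.6, typical of CpG islands, was found in 33 far-distal regions (2.27%), in 6.16% of the regions at 1 to 50 kb and in 75.6% of those within 1 kb. Repeats masked in the assembly covered a median of 9.18% of a far-distal region and more than 50% of 29 regions (2.00%). In 1239 of the 1453 regions (85.3%) no stretch of 32 bases recurred elsewhere on the assembled chromosomes, while in 8 (0.551%) more than 50% of such stretches did.

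Strength was read as the percentile of a region's peak score among the 26439 constitutive regions of the same list, from 0 to 100, because scores grow with sequencing depth. The far-distal regions stood in the middle of this range. Their median percentile was 53.7 for Veh, 51.3 for T0, 50.5 for LPS and 49.0 for T0-LPS. Regions 1 to 50 kb from a TSS had medians of 45.0, 44.4, 43.6 and 42.3 in the same order, below the far-distal regions in each list. Promoter regions, within 1 kb of a TSS, had medians of 56.8, 58.4, 59.1 and 60.6. As percentiles are ranks, a higher rank of promoters in a list lowers that of the distal regions there.

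The far-distal set held both very strong and very weak regions. In all 4 lists alike, 74 regions (5.09%, 4.08 to 6.35) stood in the top decile, against 3.32% of those at 1 to 50 kb and 11.3% of promoter regions, and 238 (16.4%) stood above percentile 75 in every list. Only 32 (2.20%, 1.56 to 3.09) were in the bottom decile of every list, against 2.54% at 1 to 50 kb.

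Peak widths followed the same order. Median width of the far-distal regions was 410 bp for Veh, 351 for T0, 372 for LPS and 351 for T0-LPS. At 1 to 50 kb it was 391, 333, 359 and 342 bp, and at promoters 553, 471, 521 and 497 bp. Almost all far-distal regions were single peaks, since 1420 (97.7%) held exactly 1 peak in each list.

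**Figure D1:**
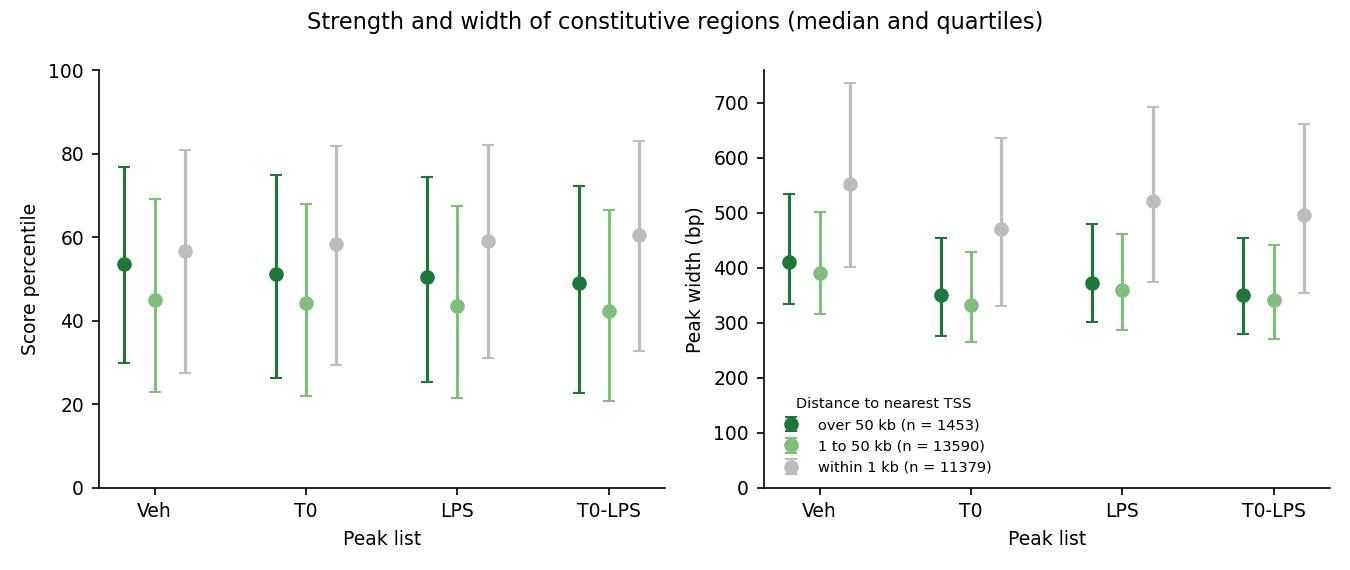
Median score percentile (left) and median peak width in bp (right) of constitutive regions in the 4 peak lists, by distance to the nearest TSS, with bars from the lower to the upper quartile. Far-distal regions (dark green) lie above the regions at 1 to 50 kb (light green) in every list on both scales, and their median percentile runs from 53.7 in Veh to 49.0 in T0-LPS.

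The region with the highest mean percentile, chr13:90515760-90516458, lay outside genes, 67220 bp from the nearest TSS and 389246 bp from the nearest protein-coding one, that of Atp6ap1l. Its score was 1692 for Veh, 1532 for T0, 1560 for LPS and 1519 for T0-LPS, at percentile 99.9 in each list. Its percentile also changed least among the far-distal regions of the top decile. The region in Pde4d shown above, chr13:108552959-108553453, scored 1648, 1399, 1496 and 1397 in the same order, or percentiles 99.8, 99.6, 99.7 and 99.7. Pde4d encodes a phosphodiesterase that degrades cAMP. Another region, chr13:77438836-77439126, in an intron of 2210408I21Rik, scored 1567, 1707, 1518 and 1603, the highest far-distal score in T0 and in T0-LPS. Masked repeats covered 61.9% of it and 29.6% of its 32-base stretches recurred elsewhere in the assembly, and the part of this in its score was not tested.

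The widest Veh peak among the far-distal regions, chr6:144901940-144903131 near Bcat1, measured 1180 bp for Veh, 1082 for T0, 1187 for LPS and 1108 for T0-LPS. Bcat1 encodes the cytosolic branched-chain aminotransferase. Its percentile was 97.3, 96.4, 97.6 and 97.9. Width and strength parted in Tiam1, a gene for a Rac exchange factor. There a Veh peak of 1176 bp stood at percentile 16.3 and fell to 235 bp and percentile 3.1 in LPS.

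Many far-distal regions shared a nearest gene. The nearest protein-coding gene was 1 of 737 genes, of which 423 had a single region. The 160 genes with 3 or more regions held 722 of them (49.7%), 56 genes had 5 or more and 8 had 10 or more. Taking regions no more than 10 kb apart as a group, 263 groups of at least 2 held 640 regions (44.0%). The largest group held 8 regions within 43884 bp inside Tns3, a tensin of focal adhesions, and the next 7 within 32814 bp near Cd47, whose product is a signal against phagocytosis.

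Counting regions by the gene that contains them, Fat3, an atypical cadherin gene, held 15, Pde4d 12, Arid1b, a chromatin remodelling subunit gene, 11, and Dock4 and Tns3 9 each. By nearest TSS, Pde4d and Nrp1 had the most regions, 13 each. The Pde4d regions ran from 5.2 to 99.8 in Veh, with median percentiles of 81.2 for Veh, 69.1 for T0, 69.3 for LPS and 76.4 for T0-LPS, and none changed by 20 percentile points in any of the 4 comparisons. Those near Nrp1, which encodes the co-receptor neuropilin-1, had medians of 47.8, 41.2, 40.2 and 37.0. Klf4, a factor of monocyte differentiation, had 8 regions, all upstream of it and outside genes, at 198162 to 291751 bp.

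Maf encodes a transcription factor of the macrophage lineage and lay beside a long run of far-distal regions. It had 12 regions, all downstream of its TSS at 56711 to 399425 bp. Their Veh percentiles ran from 11.7 to 95.8. The strongest, whose sequence is given above, stood at 95.8 for Veh, 96.7 for T0, 90.3 for LPS and 93.6 for T0-LPS. A weaker one, chr8:115398029-115398442, was the 1 region of the 12 called higher with LPS, from 37.5 in Veh and 25.8 in T0 to 84.2 in LPS and 82.8 in T0-LPS. Another pair had lower percentiles, with changes of -21.8 and -26.5 points, and the median change of the 12 was -7.54. A further 12 regions were assigned to Gm826, a predicted gene on chromosome 2, and all lay outside genes at 75708 to 245536 bp from its TSS. Their median percentiles were 70.1, 72.1, 61.5 and 60.3 in the order given above.

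**Figure D2:**
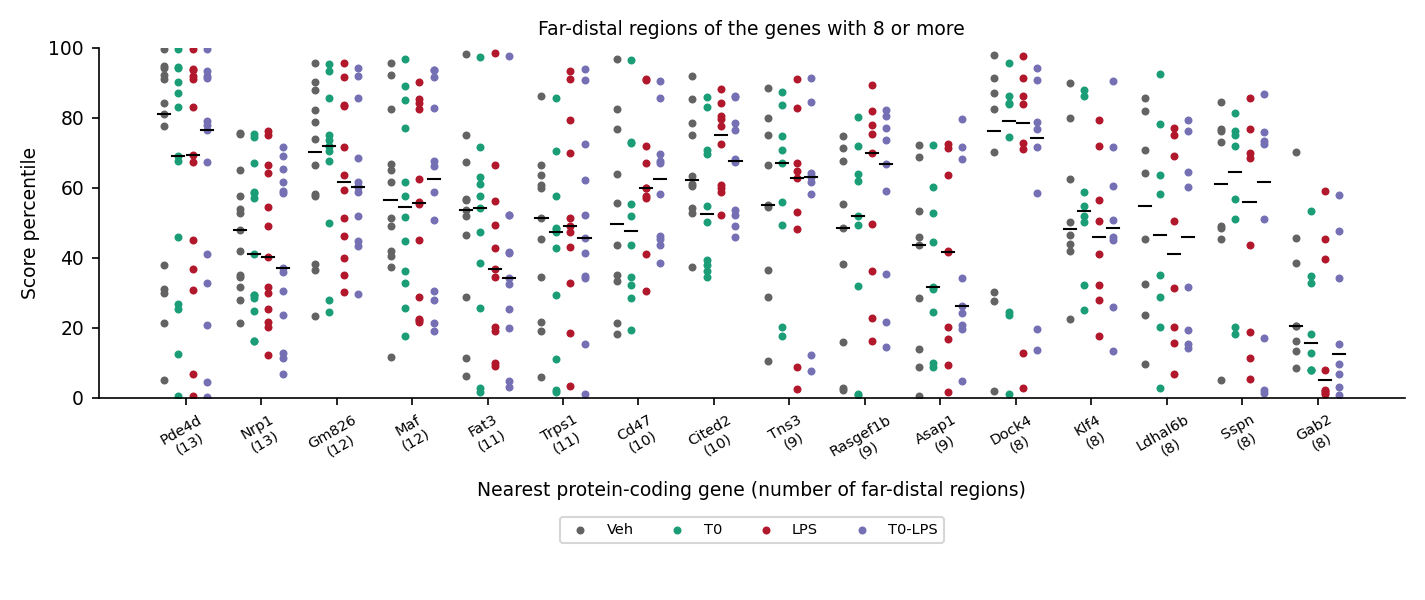
Score percentile (0 to 100) of each far-distal region in the Veh, T0, LPS and T0-LPS lists, for the 16 genes nearest to 8 or more regions. Each point is a region and each black line the median of a gene's regions in a list; regions of 1 gene spread over much of the scale in every list, as near Maf, where they ran from 11.7 to 95.8 in Veh.

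Gene groups differed in whether far-distal regions were nearest to them. Among 42 macrophage transcription factor genes, 9 were nearest to 39 regions, which was 11.5% of the 339 constitutive regions assigned to the list, beside 5.50% of all constitutive regions. Maf had 12 of these, Klf4 8, Myc and Bach2 5 each, and Zeb2 3. Of 45 genes for cytoskeleton, adhesion and phagocytic signalling, 12 were nearest to 42 regions, or 14.1% of 297. Dock4, an activator of Rac and Rap, had 8 of these, Vav3, another exchange factor for small GTPases, had 7, and the motor gene Myo1e had 6. Of 47 genes induced through TLR4, 5 were nearest to 11 regions, or 6.92% of 159. Edn1 (endothelin-1) and Pde4b (a cAMP phosphodiesterase) had 4 each, and the feedback regulators Tnfaip3, Nfkbiz and Nfkb1 had 1 each. None of 75 constitutive regions assigned to 25 LXR target genes was far-distal. Taking 3 regions as the limit for a count of 0, in place of a Wilson interval, allows a share of up to 4.00%. The count was also 0 of 95 for 26 lysosome and lipid genes and 0 of 35 for 20 housekeeping genes, with limits of 3.16% and 8.57%. How far apart genes lie sets how many regions can be far-distal, and its part in these counts was not tested.

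T0 was compared with Veh to ask how the LXR agonist changed these regions in resting cells. A region was called higher or lower when its percentile differed by at least 20 points. In T0, 10 far-distal regions (0.688%, 0.374 to 1.26) were higher than in Veh, where 1.93% of all constitutive regions were. Another 61 (4.20%, 3.28 to 5.36) were lower, where 2.54% of all were. At 1 to 50 kb the shares were 1.76% higher and 3.25% lower, and at promoters 2.29% and 1.48%. The median change of the far-distal regions was -1.35 points, and 596 of them (41.0%) moved up.

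The excess of lower over higher far-distal regions remained when promoters were left out of the ranking, an alternative chosen after seeing the data. Among regions more than 1 kb from a TSS, 26 far-distal regions (1.79%) were then higher and 63 (4.34%) lower, beside 3.04% and 3.72% of all regions so ranked. Base composition moved with the change too. Over the other constitutive regions, the median change rose from -1.40 points in the lowest GC quintile to 1.81 in the highest. In the lowest quintile, 32 of 675 far-distal regions (4.74%) were lower, against 3.69% of the others, and 3 (0.444%) were higher, against 1.41%. The part of GC content was not tested beyond these values. The lower calls were most frequent in quintile 2 of 5 of strength, counted from the weakest. There 33 of 304 far-distal regions (10.9%) were lower in T0, against 5.39% of the others, and in quintiles 1, 3 and 4 it was 3.66%, 4.98% and 1.30%, against 1.70%, 3.83% and 1.09%.

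The largest fall with T0 was that of chr15:62400992-62401542, between genes 413845 bp downstream of Myc, whose product is a growth-promoting transcription factor. It stood at percentile 60.7 for Veh, 23.8 for T0, 43.6 for LPS and 39.4 for T0-LPS. The next was in an intron of Nipbl, the cohesin loader, at 83.1, 49.0, 72.3 and 63.5. A region 57414 bp downstream of Pde4b went from 43.1 in Veh to 9.6 in T0, with 32.3 in LPS and 18.2 in T0-LPS. Regions in Diaph2, a formin gene, and Efna5, an ephrin gene, followed with 40.5 to 7.9 and 37.5 to 5.1. In all 5 the T0-LPS value was also below the Veh value, which the choice by a large fall from Veh favours. Of 5 regions with the largest rises, that near Bmper (a BMP-binding protein) went from 21.4 to 50.8 and stood at 25.7 in LPS and 10.6 in T0-LPS. A pair near Fam53b moved from 48.7 to 75.1 and from 22.7 to 48.2. The last, in an intron of Hdac9, went from 31.2 to 56.2 and had a RefSeq TSS 69 bp away.

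Cited2 and Zeb2 were singled out after their values were seen. All 10 regions upstream of Cited2, a partner of the coactivators CBP and p300, had a lower percentile in T0 than in Veh, with a median change of -7.08 points, although only 1 passed 20 points. They lay 133916 to 1224348 bp from its TSS. In T0-LPS against LPS, 4 of the 10 moved up, and the median change was -1.94 points, beside -1.54 for all far-distal regions. The 3 regions with Zeb2, which encodes a zinc-finger transcription factor, as the nearest protein-coding gene were lower as well, at 102648, 1128560 and 1024656 bp from its TSS. They stood at 69.3, 41.8 and 20.7 in Veh and at 42.8, 14.6 and 9.6 in T0, and at 55.0, 50.8 and 10.6 in LPS against 47.7, 35.8 and 19.0 in T0-LPS.

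T0-LPS was compared with LPS to see the agonist's change in stimulated cells. Here 22 far-distal regions (1.51%, 1.00 to 2.28) were higher, beside 2.23% of all constitutive regions, and 53 (3.65%, 2.80 to 4.74) were lower, beside 2.39%. At 1 to 50 kb the shares were 2.02% and 3.14%, within the far-distal intervals, and at promoters 2.57% and 1.33%. When promoters were left out of the ranking, 2.20% were higher, beside 3.44% of all regions so ranked, and 4.34% lower, beside 3.72%. The median change was -1.54 points. The largest fall was 63761 bp from a TSS near Gda, a guanine deaminase gene, from 43.3 in LPS to 2.0 in T0-LPS, with 42.2 in Veh and 37.0 in T0. A region in Hpcal1 fell from 38.3 to 4.8, but 68.0% of its 32-base stretches recurred elsewhere in the assembly. The largest rise was 137947 bp from the TSS of Banp, from 8.3 to 51.1, with 46.3 in Veh and 63.5 in T0. Next came a region in an intron of Gm30382, from 36.7 to 74.8. It lay 403235 bp upstream of the nearest protein-coding TSS, that of the adhesion receptor gene Adgrl2. In both of these regions the LPS value was the lowest of the 4, which the choice by a large rise from LPS favours.

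Few regions passed 20 points in the same direction with and without LPS, and the share was near that of all constitutive regions. Of the 61 regions lower in T0 than in Veh, 3 (4.92%) were also lower in T0-LPS than in LPS, which was 5.66% of the 53 lower there. Over all constitutive regions, 38 of the 671 lower in T0 (5.66%) were lower again, or 6.02% of 631. Of the 61, 42 (68.9%) had a negative change in T0-LPS against LPS, beside 59.9% of all far-distal regions. None of the 10 higher regions was higher again, where 25 of 511 (4.89%) were over all constitutive regions. These 2 comparisons share no list.

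LPS was compared with Veh to see the change with TLR4 stimulation. Of the far-distal regions, 112 (7.71%, 6.45 to 9.19) were higher in LPS, beside 6.14% of all constitutive regions, and 166 (11.4%, 9.89 to 13.2) were lower, beside 6.89%. At 1 to 50 kb the shares were 7.34% and 10.1%, and at promoters 4.52% and 2.47%. With T0 present, that is, in T0-LPS against T0, 98 regions (6.74%) were higher, beside 6.82%, and 159 (10.9%) were lower, beside 6.99%. Beside all constitutive regions, the gap was wider for the lower than for the higher calls, while the shares at 1 to 50 kb lay within the far-distal intervals in both comparisons. When promoters were left out of the ranking, the gap for LPS against Veh nearly closed, with 11.1% of far-distal regions lower beside 9.96% of all regions so ranked, and 9.08% higher beside 9.63%.

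LPS moved regions further than T0 did. The SD of the change over the far-distal regions was 16 points for LPS against Veh and 9.36 for T0 against Veh. Over the 1453 regions the Spearman rank correlation of the scores was 0.945 between Veh and T0 and 0.840 between Veh and LPS, where it was 0.947 and 0.887 over all constitutive regions. These regions share libraries and depth within a list, so this describes the lists. Of the 112 regions higher with LPS alone, 63 (56.3%) were also higher in T0-LPS than in T0, or 64.3% of the 98 higher there, beside 48.9% and 44.0% over all constitutive regions. For lower regions the number was 74, or 44.6% of 166 and 46.5% of 159, beside 39.4% and 38.8%. Over the 4 comparisons, 452 regions (31.1%) were called at least once, beside 24.99% of all constitutive regions, and 1001 (68.9%) never.

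**Figure D3:**
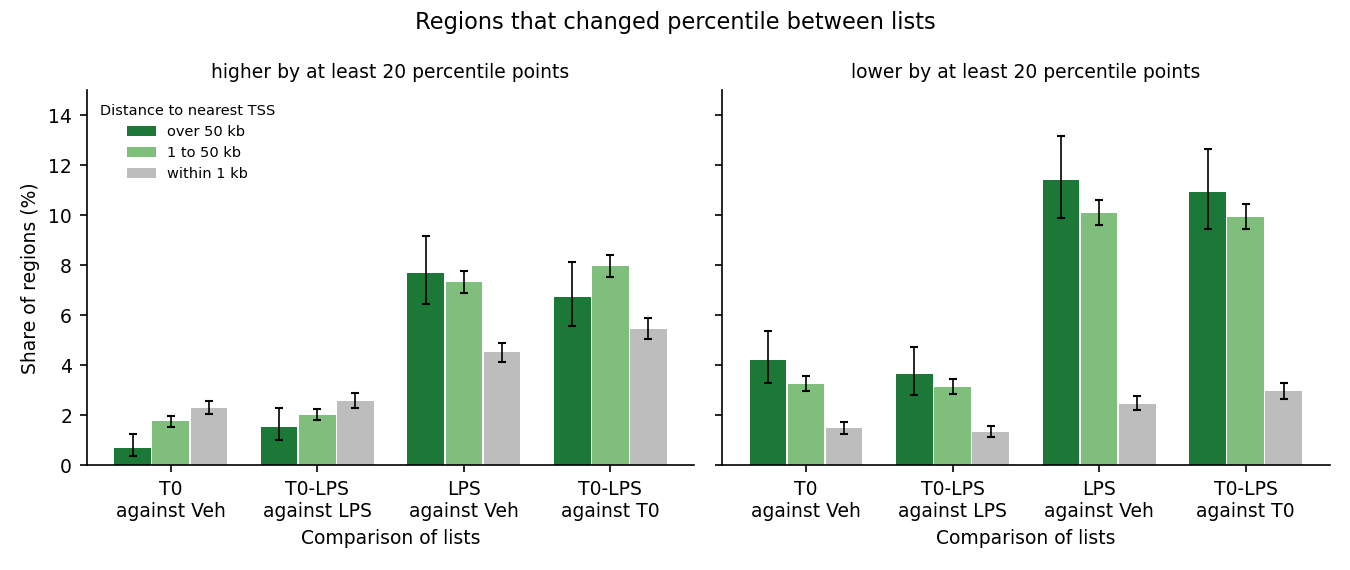
Share of constitutive regions (%) whose score percentile was higher (left) or lower (right) by at least 20 points in the first list than in the second, by distance to the nearest TSS, with 95% Wilson intervals for counting error. Far-distal regions (dark green) were more often lower than higher in each of the 4 comparisons, for example 11.4% against 7.71% for LPS against Veh, and promoter regions (grey) were seldom lower.

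The largest rise with LPS was in an intron of Ube2e2, which encodes a ubiquitin-conjugating enzyme, at chr14:18731058-18731514. It stood at percentile 3.3 in Veh and 2.9 in T0 but 83.2 in LPS and 79.9 in T0-LPS, and its peak widened from 276 bp in Veh to 430 bp in LPS. A region in an intron of Macrod2, nearest to the adhesion gene Flrt3, went from 14.4 in Veh and 18.8 in T0 to 90.8 in LPS and 87.6 in T0-LPS. Its sequence, shown above, held NF-kB, half-site and DR4 matches. Among the other 3 were a region in Arhgap10, a GTPase-activating protein gene, at 0.1, 0.2, 57.8 and 61.4, with an NF-kB match, and one in Hdac9, a histone deacetylase gene, at 31.5, 36.4, 88.7 and 77.8. All 5 stood at 57.8 or above in both lists with LPS and at 36.4 or below in both without. A region of Parp8, with AP-1 and NF-kB matches, had the same pattern at 23.5, 9.0, 70.0 and 70.1.

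The largest fall with LPS, chr16:45005324-45005711, lay 61769 bp from Cd200r3, a gene of the CD200 receptor family. Its percentile was 79.3 for Veh, 82.0 for T0, 23.6 for LPS and 34.2 for T0-LPS, and its centre, shown above, held PU.1, AP-1 and half-site matches. A region near Rnf152, which encodes a ubiquitin ligase, was at 82.3, 78.5, 30.6 and 5.3, lowest where both agents were given. One in an intron of Myo1e was at 58.7, 55.4, 10.0 and 4.0. That region lay nearest to the cyclin gene Ccnb2.

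**Figure D4:**
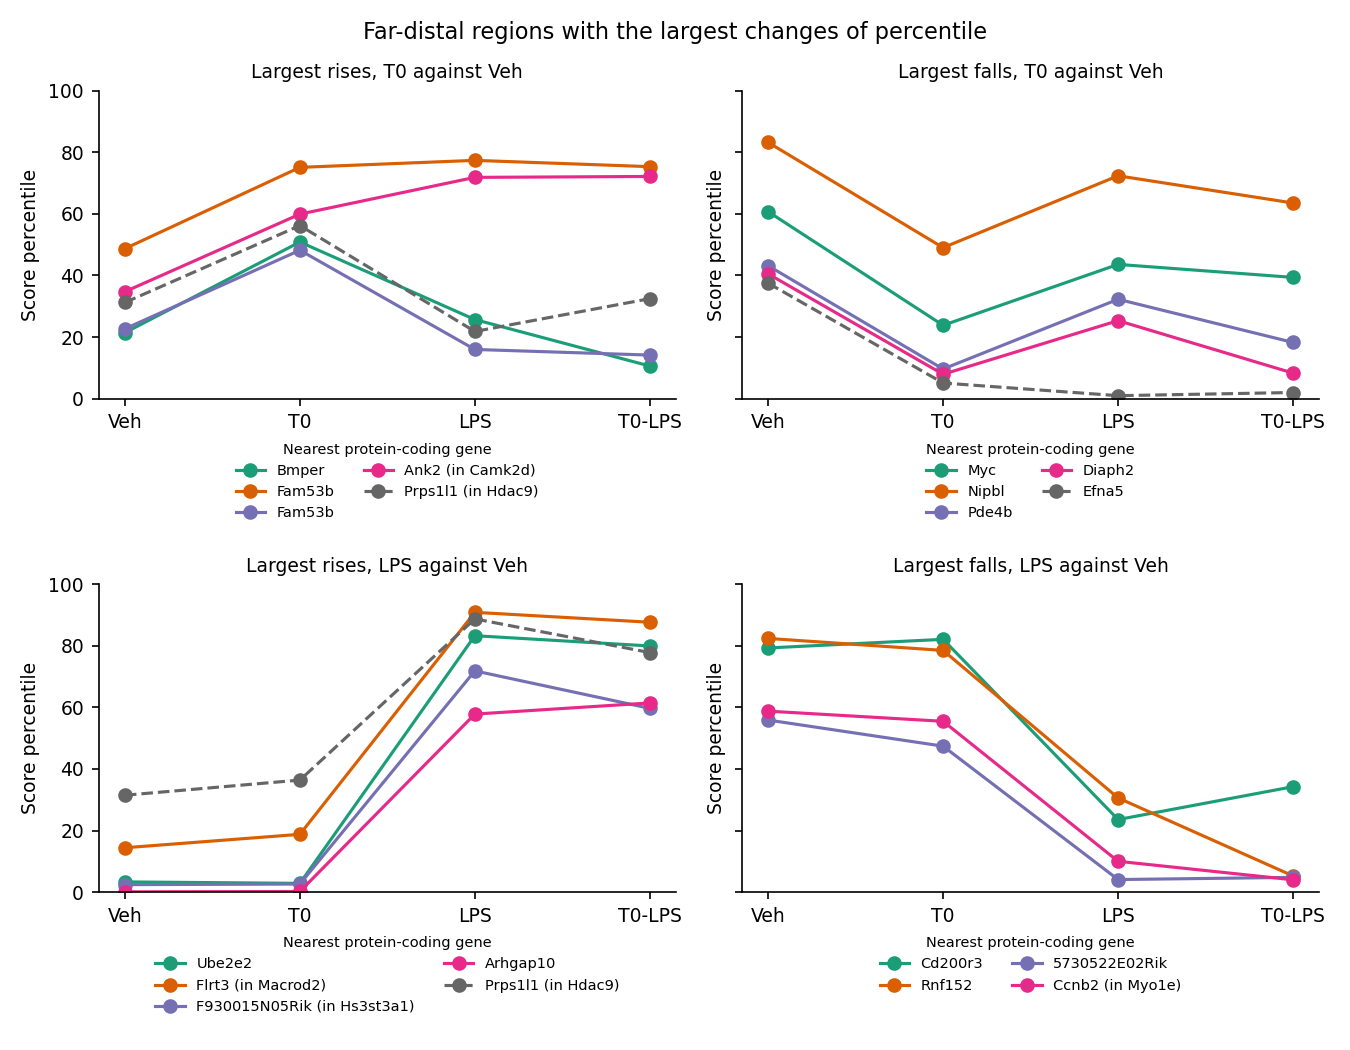
Score percentile (0 to 100) in the 4 lists of the 5 far-distal regions with the largest rises and falls in T0 against Veh (top) and LPS against Veh (bottom), named by nearest protein-coding gene, with 1 of the 5 falls with LPS not shown; lines join the values of 1 region and imply no order. Regions chosen on LPS against Veh included that of Ube2e2 (3.3 in Veh, 83.2 in LPS). They stayed on the same side of their Veh value in T0-LPS, which a choice on the Veh value favours. The region near Rnf152 fell from 30.6 in LPS to 5.3 in T0-LPS.

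Near some single genes most regions moved one way with LPS, and near others they were mixed. Cd47 had 10 regions, of which 3 were higher in LPS than in Veh and none lower, 8 of 10 moved up, and the median change was 8.77 points. Rasgef1b, a Ras exchange factor gene induced through TLR4, had 9 regions at 74340 to 162279 bp, of which 3 were higher and none lower, and 8 of 9 moved up, by a median of 13.95 points. Near Trps1, a GATA-type repressor gene, 4 of 11 were higher and 1 lower. Of the 8 regions near Klf4, 1 moved up, and likewise 1 of the 8 near Gab2, an adaptor protein gene. The others moved down, with none past 20 points, and the median changes were -9.21 and -11.23 points. In T0-LPS against T0, 4 of the 8 near Klf4 and 3 of the 8 near Gab2 moved up. The medians there were -0.169 and -2.83 points, beside -2.89 for all far-distal regions, so the one-way fall was not seen again. In that comparison 8 of the 10 near Cd47 and 6 of the 9 near Rasgef1b moved up. For the 39 regions of the macrophage transcription factor genes, 1 was higher and 4 were lower in LPS, and 0 and 3 in T0 against Veh. These are shares of 2.56% and 10.3% in LPS, beside 6.14% and 6.89% of all constitutive regions and 7.71% and 11.4% of the far-distal ones. In T0 against Veh the shares were 0% and 7.69%, beside 1.93% and 2.54% of all and 0.688% and 4.20% of the far-distal regions. Of the 3 lower regions, 2 had Zeb2, chosen after its values were seen, as the nearest protein-coding gene. The median changes of the 39 regions were -6.12 points in LPS and -2.25 in T0, beside -2.18 and -1.35 for all far-distal regions. In T0-LPS against T0 their median change was -1.88 points, beside -2.89 for all far-distal regions. For T0-LPS against LPS it was 0.475, beside -1.54. The greater fall was thus not seen in either of these comparisons. The 42 regions of cytoskeleton and adhesion genes had 5 higher (11.9%) and 2 lower (4.76%) in LPS, and those were Dock4, Vav3, Myo1e, Cd44 and Dock10 with 1 higher each, and Dock8 and Swap70 with 1 lower each. Regions were assigned by nearest protein-coding TSS, so the lower region in an intron of Myo1e, nearest to Ccnb2, was not counted among these. Of the 11 regions of TLR4-induced genes, 1 was higher (Edn1, from 29.5 to 56.9) and 1 lower (Pde4b, from 49.6 to 5.2), or 9.09% each. With so few regions, these counts are read as descriptions. Cd47, Rasgef1b, Trps1 and Gab2 were chosen after their values were seen.

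Peaks of the far-distal regions narrowed in T0, as did those of other constitutive regions. Among regions with 1 peak in both lists, the median width went from 408.5 bp in Veh to 349 bp in T0, a median change of -11.5%, and 89.7% of them were narrower, beside 87.7% of all constitutive regions. For LPS against Veh, 71.8% were narrower, beside 69.1%, and for T0-LPS against LPS 66.1%, beside 63.8%. Between T0 and T0-LPS 53.1% were narrower, beside 44.8%. Peak width grows with depth, which was not known for the lists, so that depth and treatment cannot be told apart.

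Consensus sequences of macrophage factors were frequent in the central 200 bp of the far-distal regions. AP-1 was found in 394 (27.1%, 24.9 to 29.5), C/EBP in 240 (16.5%, 14.7 to 18.5) and PU.1 in 209 (14.4%, 12.7 to 16.3). Over all constitutive regions the shares were 16.6%, 10.3% and 8.39%, and at promoters 5.00%, 5.19% and 3.29%. Regions 1 to 50 kb from a TSS came close to the far-distal ones with 25.1%, 13.9% and 12.0%. At least 1 of the 3 was present in 711 regions (48.9%). The half-site was found in 13.6% of far-distal regions, beside 11.5% of all, DR4 in 2.55%, beside 1.84%, and NF-kB in 3.23%, beside 3.72%. A consensus of CTCF, which marks insulators, was found in 7 regions (0.482%), beside 0.647%. In 596 regions (41.0%) none of the 7 consensus sequences was found.

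Matches were counted by strength and by the change in LPS. AP-1 was present in 28 of the 74 regions in the top decile of every list (37.8%, 27.6 to 49.2) and in 4 of the 32 in the bottom decile of every list (12.5%, 4.97 to 28.1), with intervals that overlapped slightly. The top and bottom deciles were closer for C/EBP, at 14.9% and 12.5%, and for PU.1 and the half-site, each at 17.6% and 12.5%. NF-kB was present in 15 of the 112 regions higher in LPS (13.4%, 8.29 to 20.9) and in 2 of the 166 lower ones (1.20%, 0.331 to 4.29). The other constitutive regions had nearly the same shares, 15.3% of the higher and 0.967% of the lower. A half-site was found in 7.14% of the higher and 15.1% of the lower far-distal regions, with intervals of 3.66 to 13.5 and 10.4 to 21.3 that overlapped. Of the 61 regions lower in T0 than in Veh, 12 (19.7%, 11.6 to 31.3) held a half-site and 1 a DR4 match, and 16 (26.2%, 16.8 to 38.4) held C/EBP, where all far-distal regions had 13.6%, 2.55% and 16.5%. These matches are sequence descriptions, and factor binding was not measured here.

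**Figure D5:**
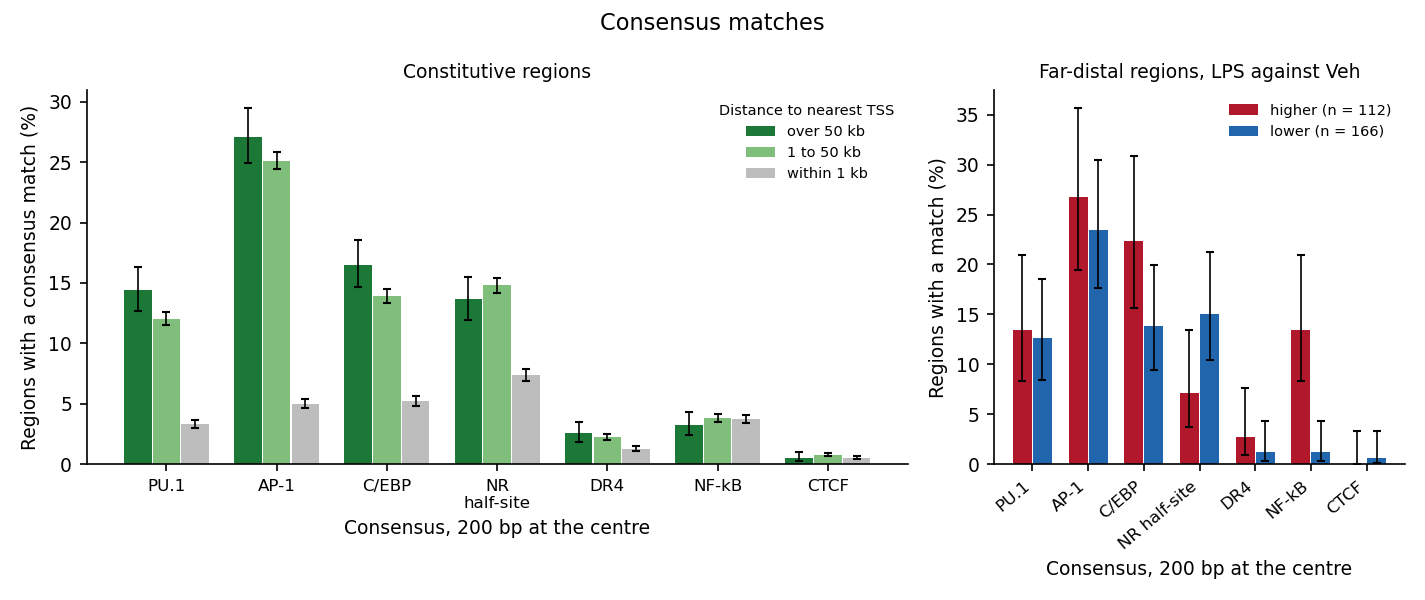
Share of regions (%) with a consensus match in the central 200 bp, for constitutive regions by distance to the nearest TSS (left) and for far-distal regions higher or lower in LPS than in Veh (right), with 95% Wilson intervals for counting error; NR is nuclear receptor. AP-1 was found in 27.1% of far-distal and 5.00% of promoter regions, and NF-kB in 13.4% of the regions higher and 1.20% of those lower in LPS.

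By chromosome, far-distal regions made up from 2.79% of the constitutive regions on chromosome 5 to 9.08% on chromosome 15. Chromosome 15, which carries the Trps1 and Myc regions, held 95 of them. On the X chromosome there were 24 (4.03%), and none of the 7 constitutive regions of the Y chromosome was far-distal.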

How the data were processed

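The labels describe 16 ATAC-seq libraries in 4 groups. Per the submitters' processing notes, the authors used cutadapt, Bowtie2, SAMtools, MACS2 and bedtools with mm10. They called peaks on the pooled libraries of each group and kept those at macrophage enhancers. The deposited lists give each peak's position and a score that no header names, used here only as a rank within a list. The depth per library was not known.

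Peaks overlapping by at least 1 bp were merged, and the highest score per list was ranked among the 26439 regions held by all 4 lists. TSSs came from the GENCODE M21 basic set, and 28 regions on contigs without a TSS were left out. All 129556 peaks on the main chromosomes ended within GRCm38 lengths. Coordinates are 1-based, and sequence came from GRCm38.p6 with consensus scans of both strands. Genes were found by symbol. Shares carry 95% Wilson intervals. Python 3.11.15, pandas 2.3.3, numpy 2.4.6 and scipy 1.17.1 were used, and the code was tested on simulated data.

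The regions, gene lists and comparisons were chosen with earlier results of these data known. Named were the 10 strongest regions, the 5 with the largest change each way per comparison, the 5 farthest and widest, those at the 50 kb limit, and the 5 genes with most regions. Alternatives were other thresholds, annotations, rankings, score limits and overlaps. Some named items and sequences are not reported here.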

Additional observations from a re-analysis of the deposited data

Results flagged for a closer look

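A region in an intron of Fat3, an atypical cadherin gene, moved in opposite directions with T0 in the lists without and with LPS. At chr9:16168005-16168402, 210027 bp from the TSS, its percentile was 46.4 in Veh and 25.8 in T0, a change of -20.6 points, and 9.3 in LPS and 32.5 in T0-LPS, a change of 23.2 points. Of the 1453 far-distal regions, 61 were lower by at least 20 points in the first comparison and 22 higher by as much in the second. This was the only region in both sets. The matching share over all constitutive regions was not counted, so the region is given as a description only. Each value comes from 1 pooled list, and the difference between the changes was not tested.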

How the results depend on the processing

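Of 100 recomputed values, 72 moved by less than the spread, interval or 1.5-fold limit set for them. No paired analysis was possible because peaks were called on pooled libraries and the lists carry no replicate, and no library could be left out. The number of regions became 3913 at 25 kb, 350 at 100 kb and 4516 with TSSs of protein-coding genes only. Ranked among all peaks of a list, which differ in number, median percentiles were 65.2, 56.4, 59.8 and 55.8 in Veh, T0, LPS and T0-LPS. The higher and lower shares then became 0% and 12.3% for T0 against Veh (all constitutive regions 0.0756% and 10.1%), 3.79% and 14.0% for LPS against Veh (3.10% and 9.02%) and 0.482% and 6.06% for T0-LPS against LPS (0.930% and 4.03%), and the lower share 8.47% for T0-LPS against T0 (5.53%). At 30 points, which keeps fewer regions by construction, higher and lower shares were 0% and 0.826% for T0 against Veh (all constitutive regions 0.117% and 0.276%), 3.10% and 4.40% for LPS against Veh (2.30% and 1.97%), 0.275% and 0.344% for T0-LPS against LPS (0.219% and 0.329%), where the gap in lower calls was no longer seen, and 3.51% and 3.72% for T0-LPS against T0 (2.68% and 2.15%). Beyond 100 kb, the higher share was 0.286% for T0 against Veh, the lower share 13.4% for LPS against Veh, and both shares were 2.57% for T0-LPS against LPS, where lower calls were no longer in excess. The cause was not tested. Ranked among regions over 1 kb from a TSS, chosen after seeing the data, the higher share was 1.79% for T0 against Veh and 8.67% for T0-LPS against T0. The comprehensive and RefSeq TSSs, also chosen after seeing the data, gave 992 and 1677 regions. A score of at least 100, summed scores and another motif centre moved no value beyond its limit.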
